A study of Mus musculus with 12 samples.

Results

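Cholesterol homeostasis was followed through 30 genes, chosen by symbol, in plasmacytoid dendritic cells from the bone marrow of BALB/c mice aged 56 to 63 days. All 30 genes were among the 21573 genes of the expression table. They comprise 18 genes of cholesterol synthesis, 5 regulators of the sterol-responsive transcription factors SREBP, 6 genes of uptake, transport and efflux, and Ch25h, which makes an oxysterol. Cultures lasted 24 h and held 0.5 µM of an oligodeoxynucleotide of class CpG-A, of class CpG-B or of class CpG-C, or none (control). Each of these 4 groups had 3 libraries. The labels say that the cells were sorted before RNA extraction but give neither the gate nor whether replicates came from separate animals, so p-values measure only the spread between these libraries. The comparisons asked which of the 30 transcripts each CpG class changed, and whether synthesis genes and transport genes behaved alike.

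Plasmacytoid dendritic cells detect CpG DNA with the endosomal receptor TLR9 and release type I interferon. Cells make cholesterol from acetyl-CoA through mevalonate, isoprenoids, squalene and lanosterol, or take it up as lipoprotein and release it from lysosomes with the NPC proteins. When sterols are scarce in the endoplasmic reticulum, SCAP escorts the SREBP factors to the Golgi for cleavage, and the freed factors switch on the synthesis genes. INSIG proteins hold SCAP back when sterols are plentiful, oxysterols strengthen that hold, and oxysterols also activate the LXR receptors, which raise the efflux pumps ABCA1 and ABCG1.

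Values were FPKM (fragments scaled for transcript length and library size), with an estimated 23000000 to 27600000 fragments per library, and between 7437 and 10622 genes reached 1 FPKM. The tests covered the 11641 genes that reached 1 FPKM in 3 or more libraries. Of the 30 cholesterol genes, 29 passed this minimum and Abca1 did not. The plasmacytoid markers were present in all groups, with Siglech, a lectin of these cells, at 1211 to 2522 FPKM with CpG-A, 104 to 253 with CpG-B, 1041 to 2402 with CpG-C and 2144 to 3241 in control. The 4 libraries numbered 1 stood apart, with the lowest mean correlation to the rest of their group (0.763 to 0.837), so results that rest on them are given with and without them. A bulk measurement cannot tell fewer expressing cells from less RNA per cell.

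Ch25h, the hydroxylase that turns cholesterol into an oxysterol and is known as an interferon-induced gene (gene ID 12642, mm10 chromosome 19, bases 34473783 to 34475135), showed the clearest difference between CpG classes. It had 26.01, 5.34 and 4.24 FPKM in the CpG-A libraries, 9.61, 28.8 and 49.6 FPKM with CpG-B, 0, 0 and 0.03 FPKM with CpG-C, and each of the 3 control libraries listed it at 0. Every CpG-A and CpG-B library lay above every CpG-C and control library. Ch25h passed the minimum of 1 FPKM only through its CpG-A and CpG-B libraries, so it had to differ between groups, and its p-values under that minimum are given as a description. Because the control is listed at 0, no fold is given against it.

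With no minimum on FPKM, which admits every gene whatever its level, Ch25h rose with CpG-B against control (limma adjusted p = 0.0178) and was higher with CpG-B than with CpG-C (limma adjusted p = 0.0459). Under the minimum, the adjusted p against control was 0.00421 and lay between 0.00187 and 0.0230 when each of the 12 libraries was left out in turn. Without the 4 libraries numbered 1 its adjusted p was 0.00372 against control and 0.0141 against CpG-C. A moderated F-test for any difference among the 4 groups, under the same minimum, called 1 of 29 cholesterol genes, Ch25h (limma adjusted p = 0.00576), and 4.71% of all genes. Since Ch25h passed that minimum only through CpG-A and CpG-B, its F-test call is also a description. Under the minimum, the difference between CpG-B and CpG-C was 4.64 on the log2(FPKM + 1) scale (SE 0.859, limma adjusted p = 0.0137), a size that depends on the added 1. That call was lost without CpG-B replicate 2 (adjusted p = 0.0565), CpG-B replicate 3 (0.0642), CpG-C replicate 2 (0.0727) or CpG-C replicate 3 (0.0606), and over all alternatives the adjusted p lay between 0.00126 and 0.0727. Among all genes, 1.35% were called in CpG-B against CpG-C (91 higher and 66 lower, or 115 and 54 under upper quartile scaling), against 1 of the 29 cholesterol genes, Ch25h.

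With CpG-A, Ch25h did not pass the test against control (limma adjusted p = 0.0820) although its 3 libraries lay above the control. Adding 0.1 in place of 1 before the log2 step brought it past the threshold (adjusted p = 0.0225), within a range of 0.0225 to 0.266 over the alternatives. CpG-A and CpG-B overlapped, with a log2 difference of -1.39 (95% interval -3.22 to 0.45). CpG-A and CpG-C did not overlap, but limma called no gene of the table in CpG-A against CpG-C. There 467 genes (4.01%) had an unadjusted limma p under 0.05, and Ch25h was among them.

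Interferon-stimulated genes set beside Ch25h were high in all 3 classes. In each class against control, 14 of 16 such genes rose, where 1.05%, 3.26% and 1.34% of all genes rose with CpG-A, CpG-B and CpG-C. Some of them, among them Rsad2, Oas3 and Cxcl10, were under 1 FPKM in every control library. Ifit3 and Gbp2 reached 1 FPKM in control replicate 3 alone. Such genes passed the minimum only through CpG libraries, so these counts and their p-values are given as a description. The summed level of the 16 genes was 4777 to 6841 FPKM with CpG-A, 4896 to 6292 with CpG-B, 4852 to 5770 with CpG-C and 157 to 727 in control. Ifit3, an antiviral gene of this list, had 299, 213 and 488 FPKM with CpG-A, 477, 588 and 651 with CpG-B, 485, 214 and 402 with CpG-C, and 0.09, 0.60 and 1.74 in control. In CpG-C libraries Ifit3 was above every control library while Ch25h was at or near 0. Gbp2, an interferon-induced GTPase of the same list, had 48.6, 7.72 and 16.6 FPKM with CpG-A, 200.09, 173 and 72.9 with CpG-B, 34.5, 5.19 and 8.70 with CpG-C, and 0.12, 0.06 and 4.02 in control. It was highest with CpG-B, as Ch25h was, and was called against control with CpG-B alone (limma adjusted p = 0.000583), although its CpG-A and CpG-C libraries also lay above the control. In CpG-B against CpG-C, 0 of the 16 interferon-stimulated genes were called by limma, and 4 had an unadjusted p under 0.05, against 11.8% of all genes.

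**Figure D1:**
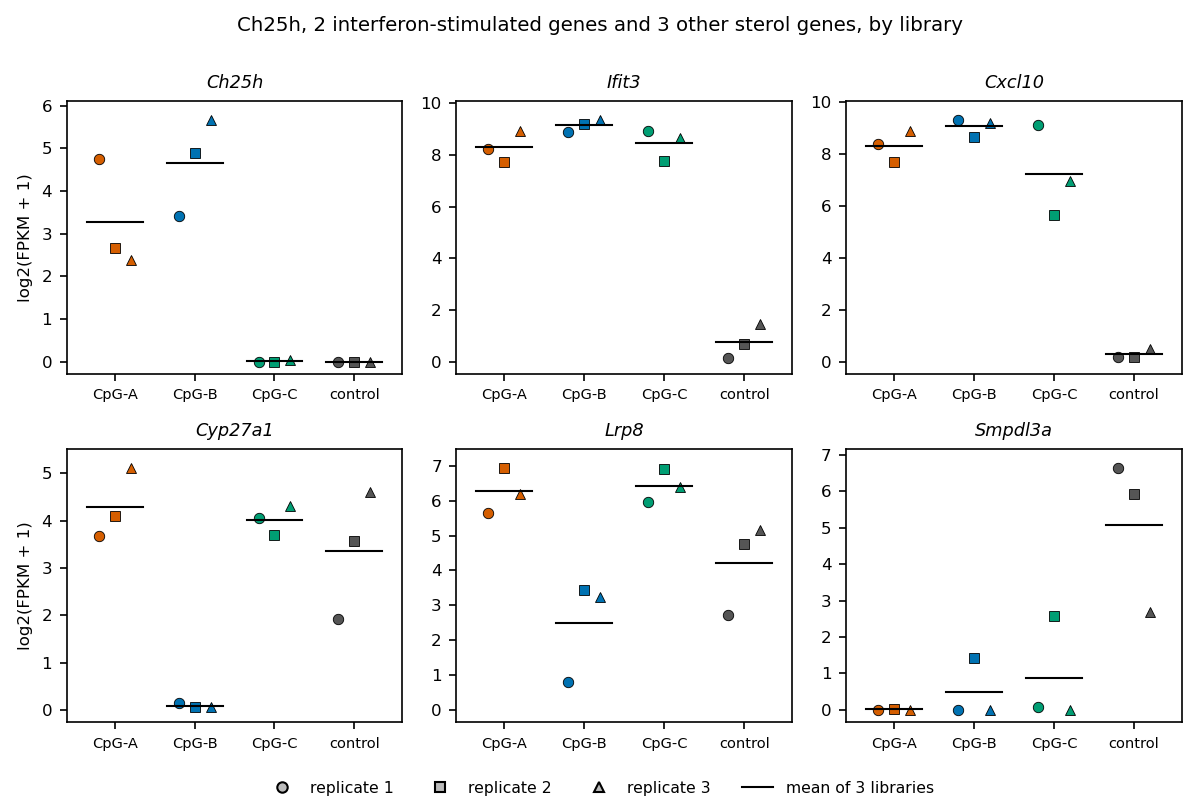
Each panel plots log2(FPKM + 1) of 1 gene in the 12 libraries, by group, with the replicate number as the symbol and a line at the mean of 3 libraries. Ch25h is above 4 FPKM in all 6 CpG-A and CpG-B libraries and at most 0.03 FPKM in CpG-C and control, Ifit3 and Cxcl10 are high in all 3 CpG classes, and Cyp27a1 is at most 0.11 FPKM with CpG-B.

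Genes that make, break down or sense oxysterols were followed in a list of which 5 could be tested. Cyp27a1, the mitochondrial sterol 27-hydroxylase, had 11.8, 16.2 and 33.6 FPKM with CpG-A, 0.11, 0.04 and 0.04 with CpG-B, 15.6, 12.1 and 18.8 with CpG-C, and 2.78, 10.96 and 23.3 in control. All CpG-B libraries lay below all others, the reverse of Ch25h in that class. Cyp27a1 fell with CpG-B against control (log2 difference -3.28, SE 0.804, limma adjusted p = 0.0251), was higher with CpG-A than with CpG-B (4.21, adjusted p = 0.0118) and lower with CpG-B than with CpG-C (-3.94, adjusted p = 0.0229). These 3 calls were lost in 5, 2 and 6 of the fits that left out 1 library, with adjusted p up to 0.119, 0.0611 and 0.110. The other 4 genes of the list were not called in any comparison. Of all genes, 5.75% were called in CpG-B against control, 2.43% in CpG-A against CpG-B and 1.35% in CpG-B against CpG-C.

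Promoter sequence was read for 24 of the 30 genes from RefSeq windows on GRCm38.p6, which run from 250 bases before to 50 bases after each transcript start. The CCAAT box, which binds the factor NF-Y that acts beside SREBP, was searched on both strands. It was found for 14 of the 15 synthesis genes with a window (14 of their 18 windows, 77.8%), for 4 of the 5 SREBP regulators (5 of 10 windows) and for 1 of 4 other genes, against 37.4% of all 32851 windows. The sterol regulatory element TCACNCCAC was found in Hmgcs1 only (1.24% of all windows), the interferon-stimulated response element (GAAA, any 2 letters, GAAA) in Ebp only (3.44%) and the LXR direct repeat (AGGTCA, any 4 letters, AGGTCA) in none (0.0152%). These matches are letters in a window and were not tested as sites. The 150 bases before the start are shown 5′ to 3′ on the gene's strand, with CCAAT (or its complement ATTGG) and the sterol element in capitals, for Hmgcs1, which holds both motifs, for the synthesis genes Mvd, Idi1, Msmo1 and Sc5d, whose CpG libraries lay apart from control in some class or which had the largest differences, and for Npc2 and Ch25h, the 2 genes called.
Hmgcs1 (chr13:119690201-119690350, plus strand): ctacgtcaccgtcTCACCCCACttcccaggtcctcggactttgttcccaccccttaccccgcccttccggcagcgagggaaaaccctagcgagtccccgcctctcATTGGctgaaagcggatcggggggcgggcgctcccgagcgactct
Mvd (chr8:122443423-122443572, minus strand): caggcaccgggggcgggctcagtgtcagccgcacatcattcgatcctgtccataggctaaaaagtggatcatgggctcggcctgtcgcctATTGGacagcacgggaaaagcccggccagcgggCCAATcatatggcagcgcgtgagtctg
Idi1 (chr13:8885456-8885605, plus strand): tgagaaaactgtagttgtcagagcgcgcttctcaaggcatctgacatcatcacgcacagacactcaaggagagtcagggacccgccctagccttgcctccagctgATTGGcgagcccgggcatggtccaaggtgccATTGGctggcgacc
Msmo1 (chr8:64733579-64733728, minus strand): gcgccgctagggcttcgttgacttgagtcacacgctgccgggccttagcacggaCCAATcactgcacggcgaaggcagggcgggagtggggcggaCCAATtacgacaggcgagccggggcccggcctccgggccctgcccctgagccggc
Sc5d (chr9:42264301-42264450, minus strand): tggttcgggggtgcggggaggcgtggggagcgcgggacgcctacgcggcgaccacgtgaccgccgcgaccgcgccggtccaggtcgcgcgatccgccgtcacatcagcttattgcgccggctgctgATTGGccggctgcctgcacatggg
Npc2 (chr12:84773113-84773262, minus strand): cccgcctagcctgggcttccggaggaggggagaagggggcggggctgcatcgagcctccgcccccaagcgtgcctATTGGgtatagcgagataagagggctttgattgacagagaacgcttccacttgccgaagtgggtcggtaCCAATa
Ch25h (chr19:34475149-34475298, minus strand): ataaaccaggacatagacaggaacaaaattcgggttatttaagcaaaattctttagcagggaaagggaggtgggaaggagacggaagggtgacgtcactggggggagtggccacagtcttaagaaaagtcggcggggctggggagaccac
The 5 synthesis genes each hold at least 1 CCAAT in this stretch, Npc2 holds it on both strands, and the Ch25h stretch holds none of the motifs searched.

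The first steps of synthesis run from acetyl-CoA to farnesyl diphosphate and were covered by 7 genes. Mvd, which decarboxylates mevalonate diphosphate (gene ID 192156, mm10 chromosome 8, bases 122433596 to 122443422), had 44.6, 22.3 and 57.8 FPKM with CpG-A, 17.7, 8.59 and 55.2 with CpG-B, 37.6, 50.4 and 62.1 with CpG-C, and 0.03, 1.52 and 23.7 in control. The window of Mvd shown before holds CCAAT on both strands. The CpG-C libraries were all above the control libraries, whereas CpG-A and CpG-B overlapped control replicate 3. The log2 differences from control were 3.31 with CpG-A (limma adjusted p = 0.124), 2.43 with CpG-B (0.185) and 3.64 with CpG-C (SE 0.97 in each, adjusted p = 0.0765), and none was called. Without control replicate 3, which held the control's highest value, all 3 passed, at 4.62 with CpG-A (limma adjusted p = 0.00805), 3.75 with CpG-B (0.0177) and 4.96 with CpG-C (0.00448). Without the libraries numbered 1, of which the control one was at 0.03 FPKM, the differences were 2.23, 1.56 and 2.85. Over all alternatives the adjusted p of Mvd lay between 0.00805 and 0.460 with CpG-A, 0.0177 and 0.459 with CpG-B, and 0.00448 and 0.303 with CpG-C.

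Idi1, the isomerase that provides the allylic isoprene unit, had 33.4, 101 and 300 FPKM with CpG-A, 111, 99.2 and 124 with CpG-B, 93.9, 66.5 and 202 with CpG-C, and 49.7, 20.7 and 59.9 in control. CpG-B and CpG-C libraries were all above control, and CpG-A replicate 1 fell inside the control range. Its log2 differences were 1.33 with CpG-A, 1.47 with CpG-B and 1.43 with CpG-C, and none was called (limma adjusted p = 0.263 with CpG-B and 0.405 with CpG-C). Fdps, which builds farnesyl diphosphate, was the most abundant synthesis gene in all 12 libraries. It had 575, 455 and 1354 FPKM with CpG-A, 476, 753 and 1174 with CpG-B, 484, 600 and 974 with CpG-C, and 290, 234 and 503 in control. Control replicate 3 alone overlapped the CpG libraries, and the log2 differences of 1.12, 1.21 and 1.01 with CpG-A, CpG-B and CpG-C were not called (limma adjusted p = 0.318, 0.165 and 0.380).

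The other 4 genes of these steps overlapped control in every class. Hmgcs1, the synthase that commits acetyl-CoA to this route, had 42.5, 259 and 127 FPKM with CpG-A, 35.04, 75.2 and 42.4 with CpG-B, 10.2, 250 and 178 with CpG-C, and 32.6, 57.8 and 89.2 in control. Its CpG-A and CpG-C values spread more widely than the control values and enclosed part of them. Pmvk, the phosphomevalonate kinase, was even across the 12 libraries, at 59.8 to 188 FPKM. Mvk, the mevalonate kinase, and Acat2, the thiolase that joins acetyl-CoA units, were both listed at 0 in CpG-A replicate 1 and reached 40.0 and 42.7 FPKM in CpG-A replicate 3.

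The 11 genes from squalene onward were led by Msmo1, the sterol methyl oxidase that strips methyl groups from lanosterol products. Msmo1 had 176, 254 and 362 FPKM with CpG-A, 80.7, 104 and 133 with CpG-B, 70.0, 276 and 375 with CpG-C, and 47.3, 83.7 and 151 in control. CpG-A libraries were all above both control and CpG-B libraries, and CpG-C overlapped control through its replicate 1. The log2 difference with CpG-A was 1.57 against control (SE 0.585, limma adjusted p = 0.261) and 1.28 against CpG-B (limma adjusted p = 0.341), and neither was called.

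Sc5d, the desaturase of a late sterol step, had 13.5, 32.1 and 44.8 FPKM with CpG-A, 12.01, 14.1 and 26.6 with CpG-B, 29.0, 45.8 and 54.2 with CpG-C, and 11.4, 15.4 and 22.8 in control. CpG-C libraries were all above both control and CpG-B libraries. Its log2 difference with CpG-C against control was 1.34 (95% interval 0.06 to 2.61, limma adjusted p = 0.368), and that with CpG-B against CpG-C was -1.28 (limma adjusted p = 0.420). Ebp, the sterol isomerase, had 41.5, 44.1 and 85.4 FPKM with CpG-A, 22.7, 62.4 and 52.6 with CpG-B, 34.9, 76.5 and 39.4 with CpG-C, and 0.08, 40.8 and 64.5 in control. Its log2 differences of 1.93, 1.59 and 1.75 with CpG-A, CpG-B and CpG-C rested on control replicate 1, and the other control libraries lay among the 9 CpG libraries. Without the libraries numbered 1 these differences were 0.25, 0.16 and 0.10.

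Lss, which closes squalene epoxide into lanosterol, had 1.37, 5.47 and 8.92 FPKM with CpG-A, 2.40, 0.89 and 7.54 with CpG-B, 6.47, 12.02 and 1.70 with CpG-C, and 0.10, 0.71 and 4.90 in control. Each class overlapped the control, and its largest log2 difference was 1.52, with CpG-C. Fdft1 and Sqle, which make squalene and its epoxide, and Cyp51, the lanosterol demethylase, overlapped control in every class, with log2 differences of -0.48 to 1.00. The reductases Tm7sf2 and Dhcr7, the dehydrogenase Nsdhl and the ketoreductase Hsd17b7 also overlapped control in every class. Nsdhl was at 0.04 FPKM in CpG-A replicate 1 and 0.06 FPKM in CpG-C replicate 1, but at 13.7 to 66.4 FPKM in the other 10 libraries.

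**Figure D2:**
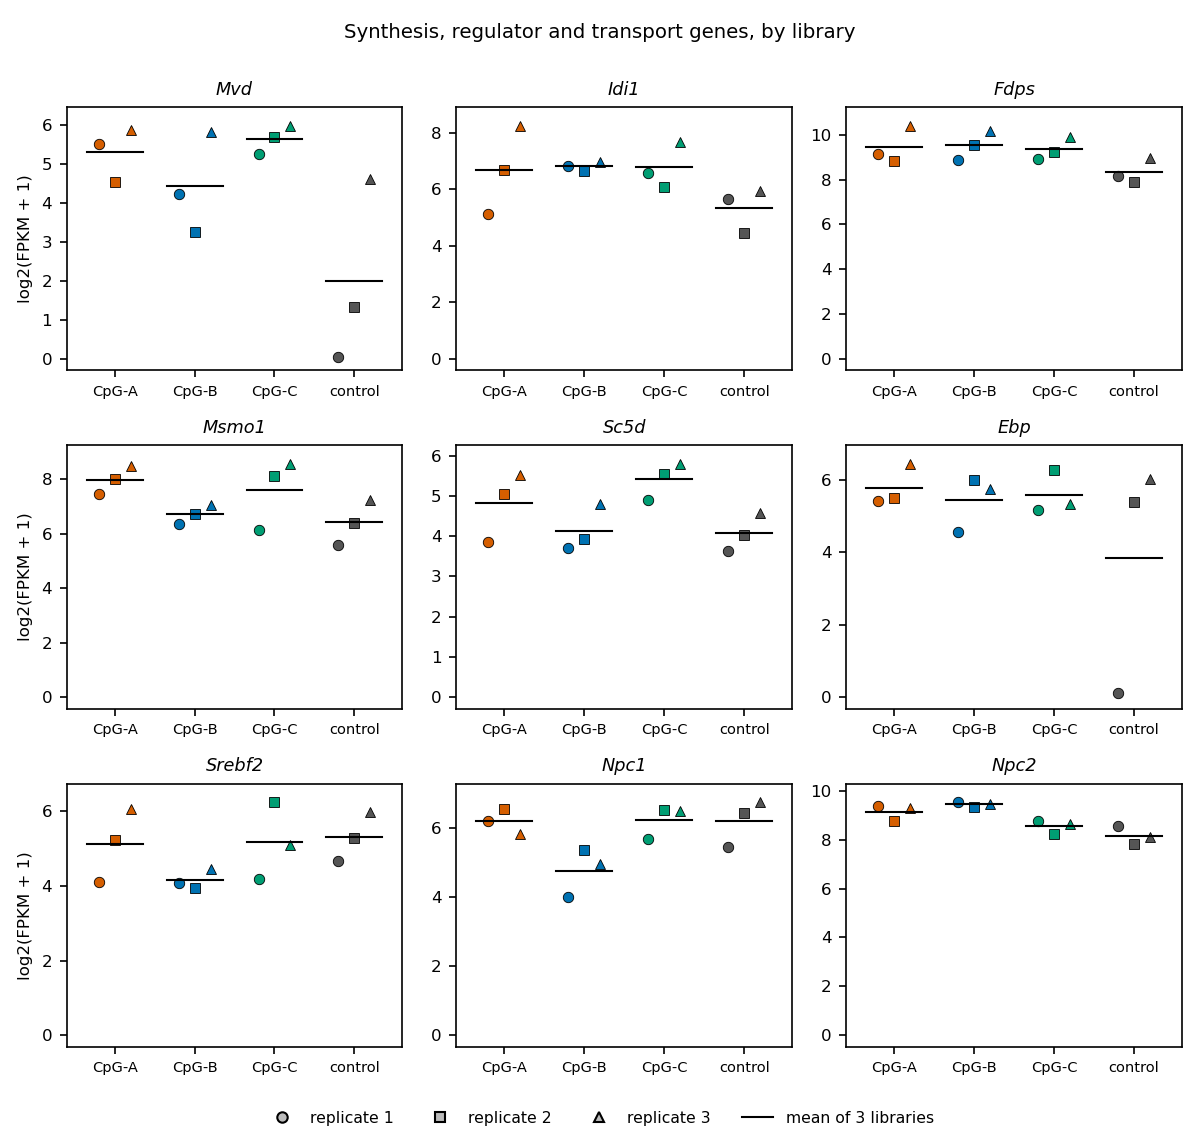
Each panel plots log2(FPKM + 1) of 1 gene in the 12 libraries, by group, with the replicate number as the symbol and a line at the mean of 3 libraries. Npc2 with CpG-B (655 to 738 FPKM) lies above control (222 to 381 FPKM), Npc1 with CpG-B lies below all other groups, and in Mvd and Ebp control replicate 1 is at 0.03 and 0.08 FPKM.

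Taking the 18 synthesis genes as a group, the fit without a replicate block called 0 of 18 in each class against control. Of all genes it called 1.47% with CpG-A, 5.75% with CpG-B and 1.86% with CpG-C. The fit with the block, given below, called Mvd, Fdps and Msmo1 with CpG-A, Fdps with CpG-B and Mvd with CpG-C. With the block, all genes called higher went from 122, 380 and 156 to 191, 470 and 208 with CpG-A, CpG-B and CpG-C. Without it, 3 of the 18 had an unadjusted limma p under 0.05 in each class, against 12.8%, 18.6% and 12.7% of all genes. The log2 differences of the 18 genes were above 0 for 16 with CpG-A, 12 with CpG-B and 14 with CpG-C, against 38.9%, 41.0% and 40.2% of all genes. The median log2 difference of the synthesis genes was 1.00 with CpG-A, 0.30 with CpG-B and 0.97 with CpG-C, and the medians of all genes were -0.27, -0.25 and -0.22. Summed over the 18 genes, the level was 1115, 1659 and 3026 FPKM with CpG-A, 1011, 1342 and 1975 with CpG-B, 884, 1881 and 2498 with CpG-C, and 716, 676 and 1307 in control. Control replicate 3 exceeded the lowest library of each class.

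Those medians depended on the scaling and on single libraries. Rescaling the libraries by median of ratios brought the all-gene medians to -0.12, -0.00 and -0.08 with CpG-A, CpG-B and CpG-C, and the synthesis medians to 1.21, 0.64 and 1.15, with 16, 16 and 15 of 18 genes above 0. The CpG-B median was 0.11 without the 4 libraries numbered 1, where the median of all genes was -0.38. It was -0.12 without control replicate 1, so that its sign rests on that library, and the median of all genes was then -0.37. The medians with CpG-A and CpG-C were above 0 in every alternative, at 0.47 to 1.74 and 0.67 to 1.61, and stood at 1.33 and 1.26 without the libraries numbered 1. The interval of single genes was wide, since the median residual SD was 1.47 on the log2 scale for synthesis genes and 1.01 for all genes tested.

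Between classes, the median synthesis gene was 0.60 higher on the log2 scale with CpG-A than with CpG-B (13 of 18 genes above 0, against 49.8% of all genes), and -0.54 with CpG-B against CpG-C (7 of 18 above 0, against 47.8%). In CpG-A against CpG-C the median was 0.15 (10 of 18 above 0, against 47.9% of all genes), and leaving out CpG-C replicate 1 made it -0.57. The other medians also moved with single libraries. In CpG-A against CpG-B the median was 1.11 without CpG-A replicate 1, 0.35 without CpG-A replicate 2, 0.06 without CpG-A replicate 3, 0.37 without CpG-B replicate 2 and 0.98 without CpG-B replicate 3. In CpG-B against CpG-C it was -0.08 without CpG-B replicate 1, -1.31 without CpG-C replicate 1, -0.03 without CpG-C replicate 2 and -0.12 without CpG-C replicate 3. The mevalonate and later steps are given apart, and the difference between them was not tested. The 7 mevalonate genes had a median of -0.08 with CpG-A against CpG-B, whereas 10 of the 11 later genes were above 0 there, with a median of 0.67. None of the 18 was called in any comparison between classes, where 2.43% of all genes were called in CpG-A against CpG-B and 0.0% in CpG-A against CpG-C.

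In CpG-A against control, libraries with the same replicate number deviated together weakly, with correlations above 0.1 in all 3 pairs, and a fit with the replicate number as a block is therefore set beside that comparison. It called 4 cholesterol genes higher with CpG-A, namely Mvd (log2 difference 3.31, limma adjusted p = 0.0423), Fdps (1.12, adjusted p = 0.0453), Msmo1 (1.57, adjusted p = 0.0474) and Npc2 (0.99, adjusted p = 0.0483), and 285 genes in all against 171 without the block. Over the other alternatives the adjusted p of these 4 reached 0.460, 0.635, 0.558 and 0.405. All 4 lay near the threshold of 0.05. Against control, the same fit also called Fdps with CpG-B (limma adjusted p = 0.0145) and Mvd with CpG-C (limma adjusted p = 0.0244), which the fit without the block did not call. In those 2 comparisons at least 1 same-numbered pair had a correlation under 0.1. Over the alternatives their adjusted p reached 0.424 and 0.303.

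Replicate number tracked the synthesis genes within each group. Replicate 1 held the lowest of the 3 values for 15 of 18 synthesis genes with CpG-A, 10 with CpG-B, 14 with CpG-C and 12 in control, where it was lowest for 45.3%, 34.9%, 46.2% and 43.8% of all genes. Replicate 3 held the highest value for 15, 14, 10 and 14 of the 18 genes in CpG-A, CpG-B, CpG-C and control, against 34.3%, 36.7%, 30.5% and 34.5% of all genes. Among the cholesterol genes that reached 10 FPKM in some library of a group, 13 of 309 values were at or under 0.1 FPKM, 11 of these in a library numbered 1 and 12 of these in a synthesis gene. The share of 4.21% was near the 4.63% of all genes tested. Over all genes tested, 2278 of 3786 such values were in a library numbered 1. The labels do not say what a replicate number marks.

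**Figure D3:**
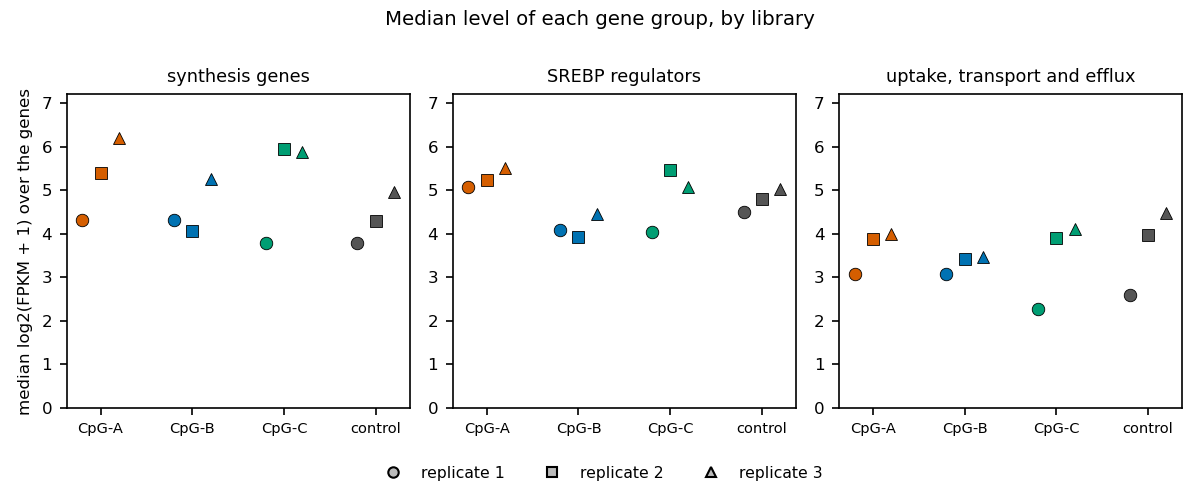
Each point is 1 library's median log2(FPKM + 1) over the 18 synthesis genes, the 5 SREBP regulators or the 6 uptake, transport and efflux genes, by group, with the replicate number as the symbol. For synthesis genes replicate 1 lies lowest with CpG-A (4.32), CpG-C (3.80) and control (3.78), and the highest control library (4.96) lies above the lowest library of each class.

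The SREBP regulators showed no call in any comparison. Srebf2, the factor that mainly drives the cholesterol genes, had 16.2, 36.6 and 66.2 FPKM with CpG-A, 16.0, 14.3 and 20.95 with CpG-B, 17.1, 74.7 and 33.4 with CpG-C, and 24.3, 38.1 and 62.2 in control. CpG-B libraries were all below the control libraries, while CpG-A and CpG-C covered the control range. The log2 difference with CpG-B against control was -1.15 (SE 0.652, 95% interval -2.54 to 0.24, limma adjusted p = 0.375). Srebf1, the factor better known for fatty acid genes, had 32.7, 16.7 and 44.2 FPKM with CpG-A and 4, 10.03 and 15.2 with CpG-B, which did not overlap, against 15.4, 43.1 and 14.0 with CpG-C and 3.04, 7.21 and 25.2 in control. Its difference between CpG-A and CpG-B was 1.64 on the log2 scale (limma adjusted p = 0.377).

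Insig1, itself a SREBP target, was at 65.4, 190 and 150 FPKM with CpG-A, 25.3, 103 and 54.9 with CpG-B, 43.1, 166 and 192 with CpG-C and 57.8, 145 and 118 in control, with overlap between all groups. The escort Scap stayed between 13.1 and 42.9 FPKM in the 12 libraries. Insig2 ranged from 0.10 to 21.7 FPKM. All 5 regulators had a log2 difference below 0 in CpG-B against CpG-C, with a median of -1.02 against -0.05 for all genes. Under median-of-ratios scaling 4 of 5 were below 0, with a median of -0.87.

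Values for uptake, transport and efflux genes lay on both sides of control. Npc2, the soluble lysosomal protein that carries cholesterol to NPC1 (gene ID 67963, mm10 chromosome 12, bases 84754559 to 84773112), had 671, 431 and 630 FPKM with CpG-A, 738, 655 and 700 with CpG-B, 436, 299 and 394 with CpG-C, and 381, 222 and 272 in control. CpG-A and CpG-B libraries all lay above the control libraries, and CpG-C overlapped control. Npc2 rose with CpG-B against control by 1.29 on the log2 scale (SE 0.314, limma adjusted p = 0.0244), and the ratio of group means was 2.39. That call was lost without control replicate 2 (adjusted p = 0.112) or 3 (0.0722), and without any of CpG-B replicates 1 (0.0888), 2 (0.0644) and 3 (0.0769), and the adjusted p lay between 0.00408 and 0.112 over all alternatives. Without the 4 libraries numbered 1 the difference was 1.46 (adjusted p = 0.0333). Ch25h was also called in CpG-B against control, but it passed the minimum only through its CpG-A and CpG-B libraries, so that call is a description. Npc2 and Ch25h were the 2 cholesterol genes of 29 called in CpG-B against control (5.75% of all genes), where 380 genes of the table rose and 289 fell. Under median-of-ratios scaling that split was 467 and 203, and under upper quartile scaling 479 and 197. Npc2 did not pass with CpG-A (0.99, limma adjusted p = 0.158) or CpG-C (0.38). In those classes 0 of 29 cholesterol genes were called against control, where 1.47% and 1.86% of all genes were called. An unadjusted limma p under 0.05 was held by 5 and 3 of the 29, against 12.8% and 12.7% of all genes.

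Npc1, the lysosomal membrane protein that takes cholesterol from NPC2, had low values with CpG-B. It had 72.7, 92.9 and 56.7 FPKM with CpG-A, 15.1, 40.2 and 30.2 with CpG-B, 51.2, 91.1 and 90.6 with CpG-C, and 43.1, 86.0 and 107 in control. All CpG-B libraries were below all 9 others, and those of CpG-A and CpG-C spanned much the same range as control. The log2 difference with CpG-B was -1.44 against control (SE 0.510, limma adjusted p = 0.125) and -1.47 against CpG-C (adjusted p = 0.225), and neither was called. With library weights both were called, at -1.61 (adjusted p = 0.0299) and -1.58 (adjusted p = 0.0357), within ranges of 0.0299 to 0.394 and 0.0357 to 0.660 over the alternatives.

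The efflux pumps were low in these cells. Abca1 was listed at 0 in the 3 CpG-A libraries, was at 0.02, 0.01 and 0.06 FPKM with CpG-B, 1.55, 0.10 and 0.18 with CpG-C and 0.16, 0 and 0.89 in control, and was not tested. Abcg1 had 0.07, 4.29 and 0.53 FPKM with CpG-A, 0.89, 3.83 and 0.41 with CpG-B, 1.58, 1.69 and 2.17 with CpG-C, and 1.19, 6.03 and 3.86 in control, and every class overlapped control. Nr1h2, which encodes an LXR receptor, was at 5.56 to 23.8 FPKM with the 3 CpG classes and 15.8 to 38.8 FPKM in control, which overlapped in each class. Stard4, a cytosolic sterol carrier, was at 5.89 to 16.4 FPKM in 10 libraries and at 0.02 FPKM in CpG-C replicate 1 and 0.45 FPKM in control replicate 1.

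The median log2 difference of the 5 tested transport genes was -0.02 with CpG-A, -0.85 with CpG-B and 0.03 with CpG-C, with 2, 2 and 3 genes above 0. Under median-of-ratios scaling these medians were 0.19, -0.60 and 0.16, so that the direction with CpG-A flipped, and without control replicate 1 the CpG-C median was -0.98. Set beside the synthesis medians of 1.00, 0.30 and 0.97, those of the transport genes were lower in each class, a difference that was not tested. With CpG-B, in the fit without a replicate block, 1 of 5 transport genes and 0 of 18 synthesis genes were called higher, against 3.26% of all genes.

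**Figure D4:**
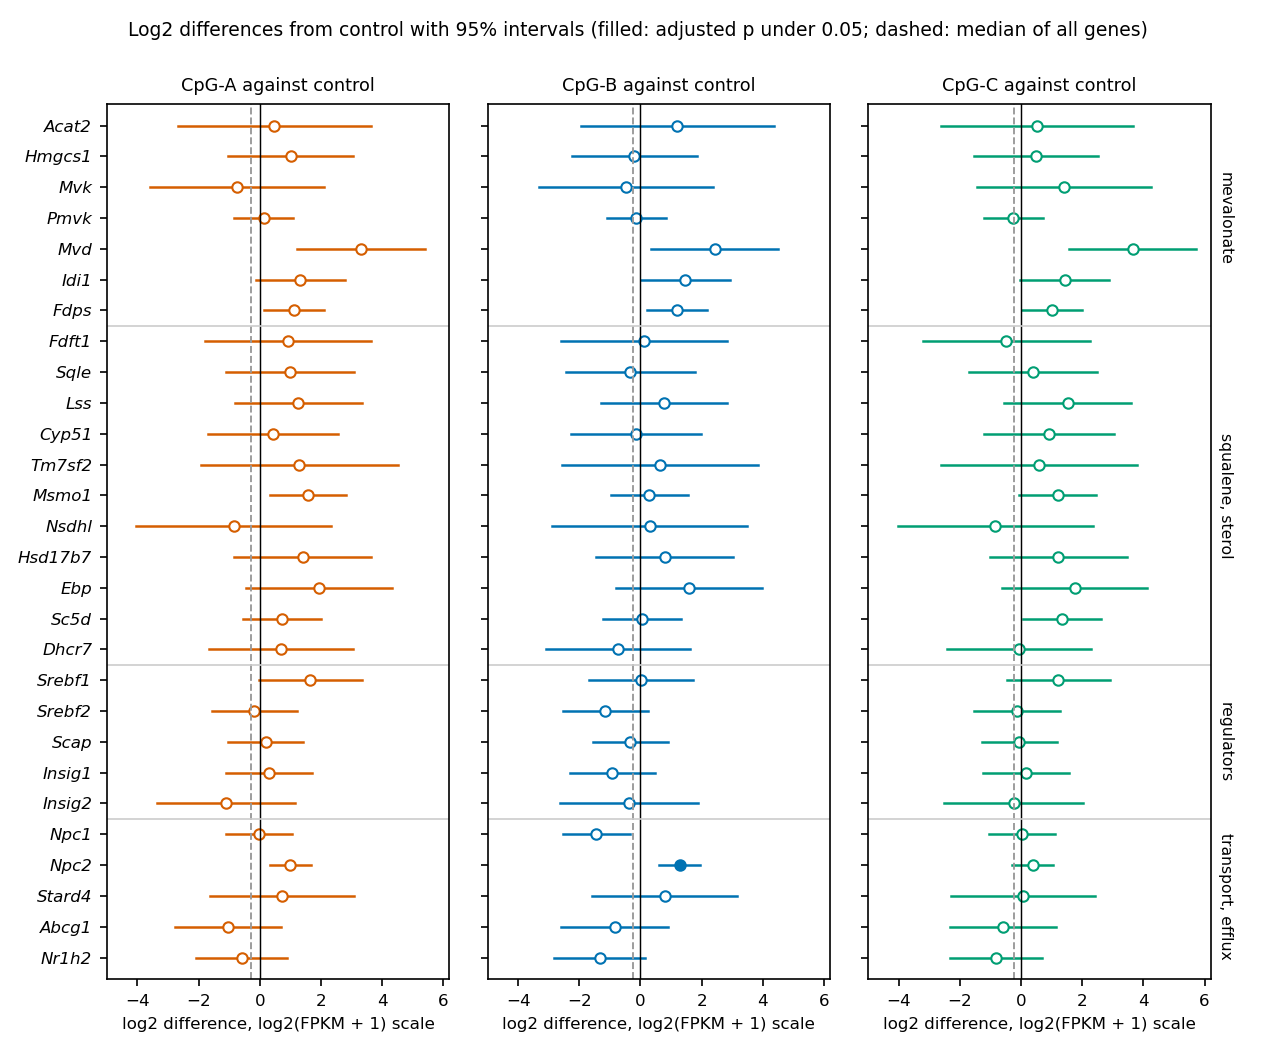
Points give the log2 difference of each CpG class from control on the log2(FPKM + 1) scale for 28 cholesterol genes, with 95% intervals from limma. Filled points passed an adjusted p of 0.05 (Npc2 with CpG-B), open points did not, the dashed line is the median of all genes, and Ch25h is left out because it is listed at 0 in control.

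Libraries of a few cholesterol genes lay wholly apart from control. With CpG-A, 3 of 29 genes lay above (Ch25h, Npc2 and Msmo1) and 0 below, where 5.78% of all genes lay above and 11% below. With CpG-B, 3 lay above (Ch25h, Npc2 and Idi1) and 2 below (Npc1 and Srebf2), where 10.1% of all genes lay above and 15.6% below. With CpG-C, 3 lay above (Mvd, Idi1 and Sc5d) and 0 below, where 6.64% of all genes lay above and 11.2% below. No cholesterol gene lay apart from control in all 3 classes. Between classes, Msmo1, Srebf1 and Npc1 lay higher with CpG-A than with CpG-B (9.49% of all genes), and Ch25h higher with CpG-A than with CpG-C (2.99%). With CpG-B against CpG-C, Ch25h and Npc2 lay higher (9.2% of all genes) and Npc1 and Sc5d lower (9.18%). Ch25h passed the minimum only through its CpG-A and CpG-B libraries, so its place in these counts is a description.

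Other genes of sterol and lipid metabolism were read from lists chosen by function. Of 7 tested lipoprotein receptors and lysosomal release genes, 1 was called over the 6 comparisons. Of all genes, 2.43% were called in CpG-A against CpG-B and 1.35% in CpG-B against CpG-C. Lrp8, a receptor for lipoproteins and reelin, had 49.7, 121 and 72.6 FPKM with CpG-A, 0.75, 9.77 and 8.51 with CpG-B, 61.4, 119 and 82.5 with CpG-C, and 5.54, 26.2 and 34.5 in control. CpG-A and CpG-C libraries lay above all CpG-B and control libraries. Lrp8 was higher with CpG-A than with CpG-B by 3.77 on the log2 scale (limma adjusted p = 0.0191) and lower with CpG-B than with CpG-C by a log2 difference of -3.92 (limma adjusted p = 0.0207), and each call was lost in 3 of the fits that left out 1 library.

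Of 8 tested genes in a list of LXR partners and targets, with no LXR receptor among them, Smpdl3a, a phosphodiesterase induced by LXR, was called. It had 0, 0.02 and 0 FPKM with CpG-A, 0, 1.70 and 0 with CpG-B, 0.05, 5.02 and 0 with CpG-C, and 98.3, 59.3 and 5.48 in control. It lay below control in every CpG library, and fell with CpG-A (log2 difference -5.07, limma adjusted p = 0.0197) and with CpG-B (-4.60, limma adjusted p = 0.0153), which share the control libraries. These calls were lost in 5 and 3 of the fits that left out 1 library. Of all genes, 1.47% were called with CpG-A and 5.75% with CpG-B against control. Smpdl3a passed the minimum of 1 FPKM only through its control libraries, so its p-values are given as a description. Of 11 tested SREBP targets of fatty acid synthesis, Me1, the malic enzyme, rose with CpG-B (limma adjusted p = 0.0358). It had 1.68, 9.69 and 3.79 FPKM with CpG-B and was listed at 0 in control. This call was lost in 7 of the fits that left out 1 library. Outside CpG-B, Me1 reached 1 FPKM only in CpG-C replicate 3 (2.25 FPKM). It thus passed the minimum only through CpG-B, so its p-value is given as a description. The other 10 were not called in any comparison, and 3.26% of all genes were called higher in CpG-B against control. None was called among 11 tested genes of other sterol synthesis and SREBP processing, 11 of the isoprenoid branches, or 15 of sterol esters and transfer, in any of the 6 comparisons.

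Marker genes of plasmacytoid and other cells are set beside the CpG-B results. In CpG-B against control, 6 of 12 plasmacytoid markers fell, where 2.48% of all genes fell. Their summed level was 5049 to 17293 FPKM with CpG-B and 9269 to 15862 in control, of which Ly6d alone made 3263 to 14679 with CpG-B and 1445 to 7213 in control. Natural killer markers summed to 516 to 4351 FPKM with CpG-B and 482 to 728 in control. Gzma alone made 627, 4002 and 318 FPKM of the CpG-B sums, and Gzma, Ncr1 and Prf1 lay above control. Klrd1 lay below it, at 86.7 to 242 FPKM with CpG-B and 327 to 724 in control, and Klrb1c overlapped control. Cell cycle genes summed to 339 to 724 FPKM with CpG-B and 105 to 325 in control. T cell markers summed to 265 to 395 FPKM with CpG-B and 77.4 to 133 in control without overlap. Cd8a made most of the CpG-B sum, at 256 to 308 FPKM with CpG-B and 40.2 to 83.3 in control. Cd4 went the other way, at 0.89, 6.26 and 18.7 FPKM with CpG-B and 36.3, 35.6 and 69.9 in control. Cd3d and Cd3g overlapped control, and Cd3e was at most 0.34 FPKM. Macrophages are a known source of Ch25h and of the efflux pumps, and the 7 markers of monocytes and macrophages that were measured summed to 0.02 to 8.27 FPKM with CpG-A, 2.92 to 8.90 with CpG-B, 0.04 to 12.98 with CpG-C and 5.85 to 30.6 in control. Of these, Csf1r, Adgre1 and Mertk were at most 0.26 FPKM in any library, Cd14 was at 0.05 to 8.85 FPKM with CpG-B and 5.57 to 30.5 in control, and Lyz2 reached 3.28 FPKM in CpG-B replicate 3. Fcgr1 was at 0, 2.87 and 2.25 FPKM in the CpG-B libraries, where Ch25h was at 9.61, 28.8 and 49.6, and at most 0.02 in control. In the CpG-A libraries the order differed, with Fcgr1 at 0, 0 and 1.27 FPKM where Ch25h was at 26.01, 5.34 and 4.24. Conventional dendritic cell markers summed to 57.6 to 176 FPKM with CpG-A, 67.1 to 114 with CpG-B, 9.77 to 169 with CpG-C and 386 to 617 in control. Cd209a alone made 182, 468 and 316 FPKM of the control sums and was at most 11.4 FPKM in any CpG library. Sirpa was also lower in every CpG library than in control, but Clec9a and Itgax overlapped control in some class. Clec9a had 10.8, 121 and 119 FPKM with CpG-A and 130, 30.1 and 32.5 in control. The part of the plasmacytoid, natural killer, T cell, macrophage, conventional dendritic cell and cell cycle genes in the Ch25h, Npc2 and Npc1 results was not tested.

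The authors' deposited table gives its own log2 ratios and q-values, and there nearly every gene passed. Its q-value was under 0.05 for 30 of 30 cholesterol genes in CpG-A against control (23 higher and 7 lower), 29 of 30 in CpG-B against control (14 higher and 15 lower) and 27 of 29 in CpG-C against control (22 higher and 5 lower). Of all genes with a value in the authors' deposited table, 89.5%, 90.9% and 89.7% had such a q-value in those comparisons, so the counts for cholesterol genes stand near the background.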

How the data were processed

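RNA of 12 libraries, 3 per group, was measured by RNA-seq. The deposited expression values are FPKM per gene and library. Tools named in the submitters' processing notes, without their roles, are HISAT, StringTie, GATK, Bowtie2 2.2.5 and RSEM 1.2.8, and the build is mm10. For each pair of groups the authors also deposited a log2 ratio, and per the file headers a p-value with its q-value, from a test not given in the sources used here. They entered no test. Transcript length, per the file headers, served only to estimate depth, which limits how exactly low values are known. No counts were used, so no counting intervals are given. Of 21574 lines 1 was broken and left out.

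The 30 genes, the other lists and the tests were chosen with earlier results of these data known. Genes with values per library are those called, those whose CpG and control libraries did not overlap with a log2 difference of at least 1 in size, and the 3 largest differences per class. Other lists name at most 4 called genes. Fdps, Hmgcs1, Srebf1, Insig1, Abca1, Abcg1 and Gbp2 were given values outside this rule, after they were seen.

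The deposited FPKM were put on a log2 scale with 1 added, and the 11641 genes reaching 1 FPKM in 3 or more libraries were fitted in limma 3.58.1 (R 4.3.3), with 1 mean per group over all 12 libraries and a mean-variance trend (8 residual and 6.81 prior degrees of freedom). A gene was called at a Benjamini-Hochberg adjusted p, over all genes tested, under 0.05. The scripts were tested on simulated data. A fold change on this scale understates that of low genes. An exact permutation test of 3 against 3 libraries cannot pass 0.05 and was not used.

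The pairing of replicate numbers was checked by the correlation across genes of deviations from group means. In CpG-A against control all 3 same-numbered pairs exceeded 0.1 (0.106, 0.133 and 0.117), so the numbers were taken to pair these libraries, although the labels state no shared batch. In the other comparisons at least 1 pair was lower, although every library there also correlated best with its own number. The cut of 0.1 was a choice, and the block was fitted over all libraries at once. Alternatives were 0.1 added before log2, no minimum, median-of-ratios and upper quartile scaling, the replicate block, library weights, only the groups compared, and leaving out each library or the 4 numbered 1.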

Additional observations from a re-analysis of the deposited data

How the results depend on the processing

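No result reversed direction past its threshold. Numbers of genes called moved by over 1.5 times as follows. With no minimum on FPKM, 102 genes were called in CpG-A against control, 440 in CpG-B against control, 118 in CpG-C against control, 157 in CpG-A against CpG-B and 92 in CpG-B against CpG-C. With library weights, 1063, 406, 509 and 587 were called in CpG-B against control, CpG-C against control, CpG-A against CpG-B and CpG-B against CpG-C. A fit of only the groups compared called 95 in CpG-A against control, 144 in CpG-C against control, 176 in CpG-A against CpG-B and 73 in CpG-B against CpG-C, and 110 were called in CpG-A against control without the 4 libraries numbered 1. Leaving out 1 library at a time gave 120 to 186, 343 to 764 and 108 to 239 genes against control with CpG-A, CpG-B and CpG-C, 62 to 356 in CpG-A against CpG-B, 0 to 2 in CpG-A against CpG-C and 37 to 166 in CpG-B against CpG-C. The cause was not tested.

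Of the cholesterol genes, 1 was called in CpG-A against control when 0.1 was added (Ch25h), and 0 to 1 when 1 library was left out, against 1 to 2 with CpG-B, 0 to 1 with CpG-C, 0 to 1 in CpG-B against CpG-C and 1 to 2 in the F-test. With library weights 3 were called in CpG-B against CpG-C (Ch25h, Npc1 and Npc2). There 330 of all genes rose and 257 fell, against 91 and 66 without weights. The F-test called 3 with library weights and 2 with upper quartile scaling. No share of all genes stands beside these F-test counts, so they are not read as a result about the cholesterol genes. The uptake, transport and efflux median with CpG-C lay between -0.98 and 0.30 when 1 library was left out.

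The replicate block called 285 genes and 4 cholesterol genes in CpG-A against control. In the other comparisons at least 1 same-numbered pair fell under the chosen cut of 0.1, and by that cut alone the numbers were not taken to pair the libraries. The cut does not show that pairing was absent, since every library correlated best with its own number and the comparisons share libraries. In these comparisons the block called 434 genes in CpG-A against CpG-B and 276 in CpG-B against CpG-C. It called 1 cholesterol gene in CpG-C against control (Mvd, limma adjusted p = 0.0244), where 208 genes rose and 102 fell. Fdps was called in CpG-B against control (limma adjusted p = 0.0145, range over alternatives 0.0145 to 0.424), where 470 genes rose and 416 fell. The block called 4 cholesterol genes in the F-test, a count with no share of all genes beside it. With 3 libraries per group, the median SE of 0.841 over all genes limits what could be called.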
